A study of Mus musculus with 36 samples.

Results

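Whole loci of 10 genes for hepatic fatty acid synthesis, chain elongation, desaturation and their transcriptional control were examined by whole-genome bisulfite sequencing of mouse liver: Srebf1, Mlxipl, Acly, Me1, Acaca, Acacb, Fasn, Elovl6, Elovl3 and Scd1. For each of the 10 genes, every CpG from 5000 bp upstream of the gene to 1000 bp past its end was taken (mm9), which gave 9916 of the 18887127 autosomal CpGs of the deposited count tables. The 24 livers formed 8 groups of 3 animals, all killed at 20 weeks of age. The parents were inbred mice, C57BL/6N (called B6 here) or C3H/HeN (C3), and comprised B6 sires, B6 dams, C3 sires and C3 dams. The offspring were sons and daughters of both reciprocal crosses, B6C3F1 (B6 dam, C3 sire) and C3B6F1 (C3 dam, B6 sire). The dams had borne and nursed litters, whereas the daughters were virgin. No animal carried an engineered allele or received a drug. Dams also differed from daughters in being inbred rather than F1 hybrids and in generation. Per the study's methods, housing differed too, as breeders were kept singly when not mating and offspring were kept in groups. These differences cannot be told apart from motherhood in the females alone. The same step between sires and sons was therefore measured beside it. Parents and offspring came from family groups, per the study's methods, but the labels do not say which animals belong together. Dams and daughters, and sires and sons, were therefore tested as independent animals although they are related. Whole liver was sequenced, so a shift in the proportions of cell types cannot be told apart from a change of methylation within one cell type.

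Liver makes fatty acids from surplus carbohydrate. Cytosolic acetyl-CoA and NADPH feed acetyl-CoA carboxylase, which makes malonyl-CoA, and fatty acid synthase, which builds palmitate, and elongases and a desaturase then lengthen the chain and introduce a double bond. The genes for these enzymes are controlled together by SREBP-1c, which responds to insulin, and ChREBP, which responds to glucose metabolites. CpG methylation is typically low at active promoters and enhancers and high across gene bodies, and low or intermediate methylation away from promoters often marks regulatory elements.

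A library held between 365740739 and 619888157 CpG read counts over the autosomes, which is 19.4 to 32.8 reads per CpG, and its autosomal methylation was 75.0% to 77.5%. The 3 B6 dams, at 75.0% to 75.7%, were the lowest of the 8 groups. Promoters of hepatocyte marker genes averaged 28.6% to 35.4% across the groups, whereas those of Kupffer cells averaged 78.5% to 82.4% and those of leukocytes 81.8% to 85.1%. The endothelial list averaged 52.2% to 56.1%, the cholangiocyte list 42.9% to 45.6% and the stellate list 9.52% to 12.1%. In none of the 6 lists did a promoter pass the test between dams and daughters, between sires and dams or between sons and daughters, and 2 hepatocyte promoters passed between the strains. The lists held only 4 to 8 tested promoters each. Of all 20038 promoters, 0.15% passed between dams and daughters, 0.544% between sires and dams and 12.6% between strains. Between sons and daughters, 44 passed. The part of cell composition in the results was not tested.

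Methylation was scored in fixed 500-bp windows as the percentage of reads that were methylated over all CpGs of the window. Windows with 5 or more CpGs and, in each animal, 30 or more reads were tested. Of the 1543 windows with a CpG in the 10 loci, 849 were tested, 682 held too few CpGs and 12 too few reads. The lowest read number of a tested window over the animals had a median of 123. A window was called different if its Benjamini-Hochberg adjusted p from limma was below 0.05 over all 1456902 windows tested in the genome and if the group means differed by at least 20 percentage points. Windows past the adjusted p alone are counted separately. Counts at an unadjusted p below 0.05 cover these genes only. Their share over all windows, promoters or loci was not counted, so they cannot be compared with the genome. Ranges said to be apart come from windows picked on the same values and are not separate evidence. Errors of log2 differences, on the scale of the ratio of methylated to unmethylated reads, are standard errors. The p-values set each difference against the spread between animals within the groups, as estimated by the model.

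Of the 849 windows, 66 averaged below 20% methylation, 249 lay between 20% and 80%, and 534 were at 80% or above, with a median of 86.7%. The bodies of Acaca (median 92.8%) and Acacb (90.3%), the carboxylases of the cytosol and of the mitochondrial surface, were the most methylated. Srebf1 (54.9%), Scd1 (63.1%) and Elovl3 (39.3%) had the lowest medians. Elovl3, the shortest of the 10 genes, had 1 of its 12 windows at 80% or above.

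**Figure D1:**
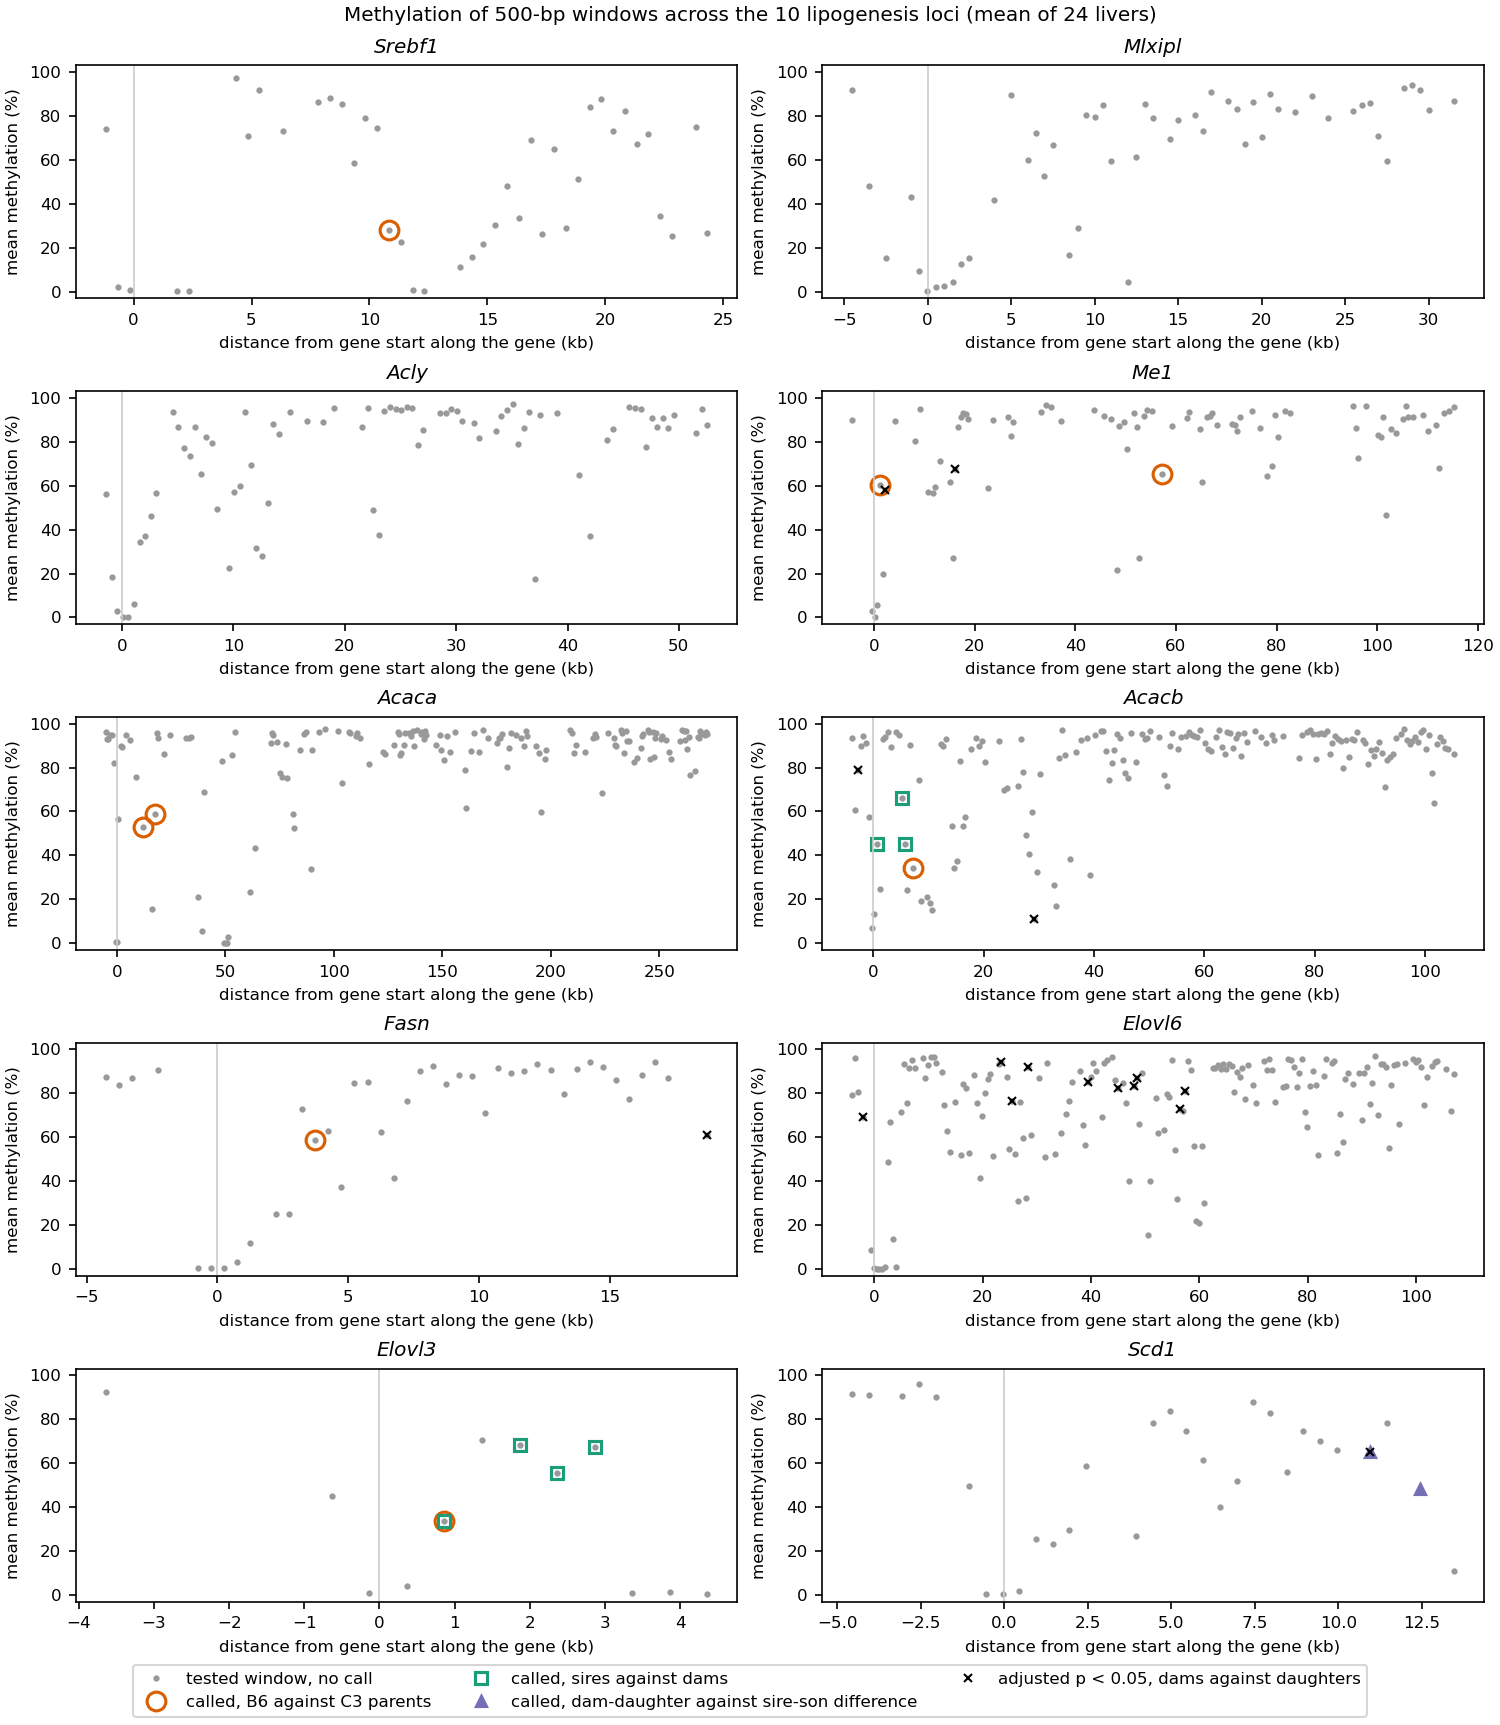
Mean methylation of each tested 500-bp window (y axis, percent, mean of 24 livers) against its distance from the gene start along the gene (x axis, kb) for the 10 genes, with windows that differed marked. In all 10 genes the windows at the gene start dip below 20%, and the bodies of Acaca and Acacb lie mostly above 80%.

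The following 8 stretches carry the differences described below and are printed here from the mm9 reference, on the coding strand of each gene, with every CG in capitals. Elovl3, a very-long-chain fatty acid elongase whose liver expression is higher in males, is represented by the intronic stretch that differed between both strains and sexes and by the stretch of the widest sex difference, which runs from the end of a coding exon into the intron after it.
Elovl3 chr19:46207084-46207298: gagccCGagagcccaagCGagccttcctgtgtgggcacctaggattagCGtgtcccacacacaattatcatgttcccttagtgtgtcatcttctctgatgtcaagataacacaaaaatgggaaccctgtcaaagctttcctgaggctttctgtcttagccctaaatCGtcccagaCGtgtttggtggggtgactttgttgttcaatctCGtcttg
Elovl3 chr19:46208555-46208847: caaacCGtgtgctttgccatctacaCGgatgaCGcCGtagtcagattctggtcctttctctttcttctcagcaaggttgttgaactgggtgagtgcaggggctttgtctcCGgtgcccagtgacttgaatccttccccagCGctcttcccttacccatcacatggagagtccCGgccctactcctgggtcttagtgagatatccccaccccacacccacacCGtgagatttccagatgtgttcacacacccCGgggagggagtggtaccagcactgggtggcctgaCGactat
Acacb makes the malonyl-CoA that restrains mitochondrial fatty acid oxidation, and its stretch lies in the first intron region where sires and dams differed.
Acacb chr5:114597032-114597163: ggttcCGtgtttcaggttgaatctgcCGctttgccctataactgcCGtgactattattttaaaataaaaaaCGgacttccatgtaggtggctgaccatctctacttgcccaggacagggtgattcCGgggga
Me1 encodes cytosolic malic enzyme, a source of NADPH for fatty acid synthesis. Its 2 stretches are the window of the widest strain difference, which opens with a CG-rich repeat, and the window of the widest difference between dams and virgin daughters, which overlaps a coding exon and the intron beside it. The first prints more CGs than the 8 CpGs with counts.
Me1 chr9:86588635-86588884: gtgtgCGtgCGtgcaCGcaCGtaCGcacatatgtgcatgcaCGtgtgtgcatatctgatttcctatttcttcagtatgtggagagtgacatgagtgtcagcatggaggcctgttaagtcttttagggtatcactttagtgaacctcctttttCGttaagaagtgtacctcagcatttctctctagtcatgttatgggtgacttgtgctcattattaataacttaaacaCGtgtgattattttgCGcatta
Me1 chr9:86573747-86573983: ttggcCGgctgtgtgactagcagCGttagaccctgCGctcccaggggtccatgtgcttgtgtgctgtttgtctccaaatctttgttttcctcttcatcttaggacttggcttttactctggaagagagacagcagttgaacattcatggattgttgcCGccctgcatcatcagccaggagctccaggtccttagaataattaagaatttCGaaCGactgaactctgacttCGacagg
Acaca makes malonyl-CoA for synthesis, and its stretch comes from the intronic window that was higher in C3.
Acaca chr11:83960563-83960808: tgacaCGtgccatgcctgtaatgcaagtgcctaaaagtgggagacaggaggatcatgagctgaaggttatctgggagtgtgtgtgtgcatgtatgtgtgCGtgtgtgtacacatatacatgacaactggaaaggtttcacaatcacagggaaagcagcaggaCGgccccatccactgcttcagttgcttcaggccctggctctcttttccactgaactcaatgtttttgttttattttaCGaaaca
Fasn encodes fatty acid synthase, and its stretch, which was higher in B6, covers parts of neighbouring coding exons and the intron between them.
Fasn chr11:120681584-120681883: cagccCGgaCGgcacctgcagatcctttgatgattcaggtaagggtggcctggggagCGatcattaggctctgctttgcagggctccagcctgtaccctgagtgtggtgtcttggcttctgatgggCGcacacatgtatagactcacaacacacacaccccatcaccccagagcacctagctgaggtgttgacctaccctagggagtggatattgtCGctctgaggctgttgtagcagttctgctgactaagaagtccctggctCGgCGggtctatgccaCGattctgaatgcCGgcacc
Elovl6, the elongase that converts palmitate to stearate, is shown where dams were below daughters with the smallest adjusted p at that gene.
Elovl6 chr3:129280018-129280307: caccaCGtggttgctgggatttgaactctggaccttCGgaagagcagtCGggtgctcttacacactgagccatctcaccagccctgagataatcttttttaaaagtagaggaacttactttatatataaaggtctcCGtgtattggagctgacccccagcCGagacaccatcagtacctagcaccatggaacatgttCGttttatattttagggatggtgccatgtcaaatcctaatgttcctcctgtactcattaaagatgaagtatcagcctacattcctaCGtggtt
The letters CACGTG, a core E-box that reads the same on both strands, occurred in 9.11% of all tested windows and in 5 of the 31 windows described for this purpose, including the printed Acaca and Elovl6 windows and the Me1 window near the gene start. The letters TTCNNNGAA, also the same on both strands and the form bound by STAT proteins, occurred in 15.7% of all windows and in 6 of the 31. These are matches of letters only.

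At the gene starts, methylation was low in nearly all of these genes. The GENCODE annotation gave 27 starts of protein-coding transcripts, of which 23 fell in a tested window and 18 of those in a window below 20%. Over the 24 animals, the promoter (1000 bp before to 500 bp after the gene start) of Fasn lay between 0.115% and 0.861%. The promoters of Srebf1 (0.785% to 4.16%), Elovl6 (0.481% to 3.45%), Acaca (1.13% to 3.42%), Acly (1.66% to 3.94%), Mlxipl (1.81% to 4.40%) and Scd1 (2.29% to 5.22%) were also nearly free of methylation in every animal. The Srebf1 promoter as defined here holds no annotated protein-coding start. The first such start lies 1977 bp into the gene, in a window at 0.299%. Me1 (6.38% to 18.4%) and Elovl3 (6.81% to 22.1%) were intermediate, and the Acacb promoter was the highest at 25.5% to 36.6%. Another 5 annotated starts lay in windows above 20%, namely an Acacb start 18983 bp into the gene (89.8%), Mlxipl starts at 26719 bp (85.7%) and 26740 bp (70.6%), a Srebf1 start at 15393 bp (30.3%) and an Acly start at 4402 bp (93.3%). The lowest windows of the genes ranged from 0.260% at Acly to 6.77% at Acacb. Of these, 2 lay far from the gene start. That of Acaca (0.304%, 75 CpGs) lay 50076 bp into the gene and holds further annotated protein-coding starts, at 50139 and 50201 bp. That of Elovl3 (0.302%) lay 4363 bp downstream of its start, where it overlaps Pitx3.

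The first comparison asked whether B6 and C3 parents, 6 against 6, differed. Of the 849 windows, 8 were called (0.942%), 4 higher in B6 and 4 higher in C3, in 6 of the genes, against 0.494% of all windows in the genome (0.245% higher in B6 and 0.249% higher in C3). Fewer were called with windows shifted by 250 bp. Fewer were also called among windows with at least 100 reads in every animal, a limit that left several of them untested. By the adjusted p alone 94 windows differed (11.1%), 51 higher in B6 and 43 higher in C3, against 6.63% of all windows (2.34% higher in B6 and 4.29% higher in C3). The median difference, B6 minus C3, was -0.28 points over the 849 windows and -0.63 points over all windows. Every gene held at least 4 such windows. At Scd1, Acly and Fasn all of them (11, 6 and 4) were higher in B6, whereas at Elovl3 (5) and Mlxipl (4) all were higher in C3, and at Acacb 20 of 22 were higher in C3. The deposited list of single-nucleotide variants (SNVs) of the strain genomes against mm9 held 1022 sites in these loci. Any sites where both strains share a base were not left out. The 4 loci with 89 to 375 SNVs (Srebf1, Acacb, Me1 and Acaca) held 459 tested windows, of which 6 were called and 12.9% passed the adjusted p. The 6 loci with 0 to 9 SNVs held 390, of which 2 were called and 8.97% passed. An SNV lay in 4 of the 8 called windows, in 32 of the other 86 that passed the adjusted p (37.2%) and in 193 of the 755 that did not pass (25.6%). The shares of windows with an SNV over the genome were not counted, and a link with SNVs was not tested.

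Among the regulators, Srebf1, which encodes the SREBP-1 transcription factors, had 1 called window, in an intron at chr11:60025001-60025500, 10833 bp into the gene (10 CpGs). It lay upstream of annotated protein-coding starts at 12116 and 12227 bp into the gene, which fell in a window at 0.416%. In the called window, B6 parents had a lowest value of 33.1%, a median of 41.7% and a highest of 45.6%, and C3 parents had 10.3%, 17.5% and 20.0%. All B6 parents were therefore above all C3 parents, by 24.9 points on average (log2 difference 1.84 ± 0.19, adjusted p = 2.27e-08). Read depth differed at 4 of its 10 CpGs, which together held 18 reads in C3 parents against 317 in B6 parents. With only CpGs that had at least 10 reads in every group, the window kept 6 CpGs, and the difference was 13.6 points (adjusted p = 6.56e-05), under the 20-point limit. Giving each CpG equal weight gave 13.0 points over those 6 CpGs and 19.9 points over the 8 CpGs with a read in all 4 parental groups. Mlxipl, which encodes ChREBP and held no listed SNV, had no called window.

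Of the precursor enzymes, Me1 had 2 called windows in opposite directions. In the intron 1197 bp past the gene start (chr9:86588501-86589000, 8 CpGs), the widest difference of the 10 loci was seen. B6 parents ranged from 78.5% to 83.2% with a median of 80.1%, and C3 parents from 16.4% to 41.5% with a median of 36.5%. The strains were far apart, B6 being 46.5 points higher (log2 2.98 ± 0.21, adjusted p = 5.19e-12), and all 8 CpGs shared the direction. Read depth was lower in C3, most of all in the repeat. At position 86588878, C3 sires and dams had 12 and 13 reads, and B6 sires and dams 34 and 41. Equal weight per CpG gave 47.0 points. The 12 F1 animals lay between 51.9% and 75.7%, so that each was below the lowest B6 parent and above the highest C3 parent. At chr9:86532501-86533000, 57197 bp into the gene, C3 was higher instead. B6 parents had 50.5%, 53.6% and 60.7% as lowest, median and highest values and C3 parents 75.7%, 78.5% and 81.3%, a difference of -24.3 points (log2 -1.61 ± 0.14, adjusted p = 4.6e-10) that shrank to -13.1 points with equal weight per CpG. Acly, ATP citrate lyase, which makes cytosolic acetyl-CoA, had 6 windows past the adjusted p, all higher in B6, and no called window.

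The carboxylases held 3 called windows, all in introns. At Acacb (chr5:114603501-114604000, 7206 bp into the gene), B6 parents had 19.7%, 24.8% and 33.2% as lowest, median and highest values and C3 parents 38.4%, 47.6% and 60.6%. The ranges did not touch, and B6 was lower by 23.2 points (log2 -1.46 ± 0.20, adjusted p = 3.05e-06). At Acaca the 2 called windows went opposite ways. In the window at chr11:83960501-83961000, with 5 CpGs and 5 listed SNVs, B6 parents had 39.5%, 43.1% and 47.8% and C3 parents 63.5%, 78.8% and 83.9%, B6 being lower by 31.8 points (log2 -1.99 ± 0.20, adjusted p = 6.83e-09). In the window at chr11:83955001-83955500, B6 parents had 52.9%, 64.2% and 67.8% and C3 parents 33.3%, 40.7% and 52.6%. There the B6 animals were all above the C3 animals, by 20.6 points (log2 1.19 ± 0.18, adjusted p = 2.53e-05). That value fell below 20 points without B6 dam 2 (19.7), without C3 sire 3 (17.8), with reads thinned to equal depth (17.1) and with equal weight per CpG (11.3).

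Fasn was called in a window over parts of neighbouring coding exons and the intron between them (chr11:120681501-120682000, 3742 bp into the gene, 13 CpGs) at a locus without listed SNVs. B6 parents had 65.6%, 71.1% and 77.3% and C3 parents 37.0%, 52.1% and 62.2%. All B6 parents lay above the C3 parents, by 20.8 points (log2 1.28 ± 0.17, adjusted p = 1.72e-06), and 13 of 13 CpGs were higher in B6. Without B6 sire 1, B6 dam 3, C3 sire 2 or C3 dam 3 in turn, the difference was 19.9, 19.7, 19.8 and 19.4 points, just under the limit. Scd1, the desaturase that makes oleate, had no called window, yet 11 of its 30 windows passed the adjusted p and all 11 were higher in B6, as was its locus as a whole (5.37 points, adjusted p = 0.00118). The whole loci of Acacb (-1.51 points, adjusted p = 9.03e-04) and Elovl3 (-4.94 points, adjusted p = 0.0014) also passed and the other 7 did not, where 27.9% of all 21218 loci passed.

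Elovl3 was the single gene whose promoter differed between strains with all animals in the fit, where 12.6% of 20038 promoters did. Without C3 sire 3 the Srebf1 promoter passed as well. The Elovl3 promoter averaged 7.43% in B6 sires, 9.58% in B6 dams, 13.0% in C3 sires and 19.5% in C3 dams (B6 minus C3 -7.74 points, log2 -1.01 ± 0.16, adjusted p = 1.74e-05). In the intronic window at chr19:46207001-46207500, 863 bp into the gene, the 3 B6 sires had 9.8%, 5.5% and 17.7% and the 3 C3 sires 13.0%, 14.3% and 19.8%. The B6 dams had 28.0%, 43.0% and 29.9% and the C3 dams 79.2%, 85.2% and 82.1%. Sires of both strains thus overlapped, whereas dams did not. Over both sexes B6 was lower by 26.6 points (log2 -1.90 ± 0.27, adjusted p = 6.96e-06). The strain difference was -4.69 points in sires and -48.5 points in dams, but this difference between the sexes did not pass its own test (log2 -2.43 ± 0.54, adjusted p = 0.44). By that test of strain by sex, chosen after the values were seen, none of the 849 windows passed in limma (51 at an unadjusted p below 0.05), against 0.00178% of all windows.

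At all 8 called windows the mean of the 12 F1 animals lay between the means of the parental strains. All 12 animals did so at 4 of them, both Me1 windows, Srebf1 and the Acaca window higher in C3, against 11 at Fasn, 10 at the other Acaca window, 9 at Acacb and 4 at Elovl3, where F1 males and females were apart. At all 8 windows the direction of the strain difference was the same in sires and in dams. The call rests on the average of these differences, so the shared direction was largely built in. At Elovl3 the difference was -4.69 points in sires and -48.5 points in dams. Between the reciprocal crosses, which carry the same 2 genomes from opposite parents, no window of the 10 loci passed in limma, called or by the adjusted p alone, although 61 had an unadjusted p below 0.05. The corresponding shares of all windows were 0.000686% and 0.00192%. The widest difference was at Elovl6 (chr3:129295501-129296000), -9.46 points for B6C3F1 minus C3B6F1 (adjusted p = 0.603).

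**Figure D2:**
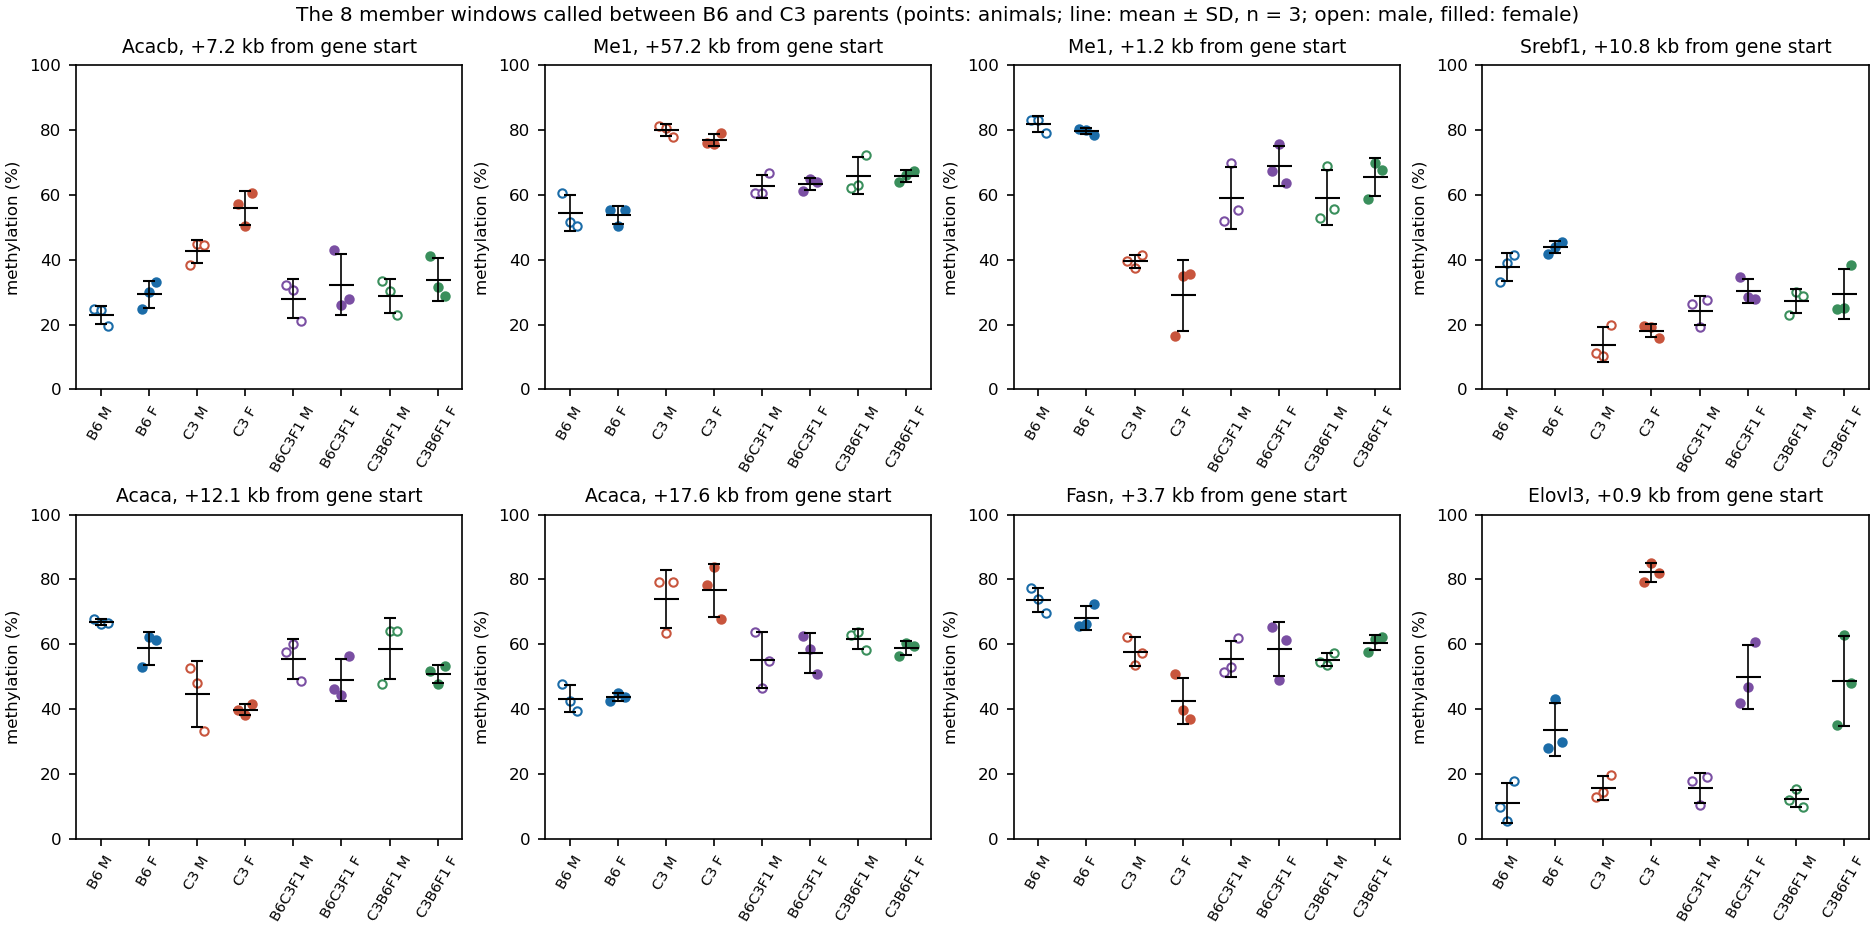
Methylation (y axis, percent) of the 8 windows called between B6 and C3 parents, by group (x axis), each point an animal and each line the mean ± SD (n = 3), with males open and females filled. At the Me1 window 1.2 kb into the gene the F1 animals, 51.9% to 75.7%, lie between B6 (78.5% to 83.2%) and C3 (16.4% to 41.5%), and at Elovl3 the C3 dams stand above all other groups.

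The second comparison asked whether dams, which had nursed litters, differed from virgin daughters, 6 against 6. No window of the 10 loci was called in limma, as 0.0198% of all windows were, and the arcsine and quasi-binomial models also called 0. With windows shifted by 250 bp, 1 was called, downstream of Fasn (-20.4 points). At an unadjusted p below 0.05 there were 156 windows, a limit at which the windows of the whole genome were not counted. By the adjusted p alone 16 windows passed (1.88%), 13 lower and 3 higher in dams, against 0.181% of all windows (0.149% lower and 0.0318% higher). Their differences were 5.26 to 16.4 points, and the ranges of the 2 arms were apart in 11 of the 16. In 15 of them the B6 dams and the C3 dams lay on the same side of the daughters. Both counts are favoured by picking the windows on the same values, and neither was made over all windows. The window where the dam groups split was in Acacb (chr5:114593501-114594000), counted as higher in dams. Its means were 74.1% in B6 dams, 92.4% in C3 dams and 74.6% in daughters. It failed under 19 of 32 alternatives (adjusted p up to 0.499). The median difference was -0.65 points over the 849 windows and -0.37 points over all windows. The 16 windows belonged to Elovl6 (10), Acacb (2), Me1 (2), Fasn (1) and Scd1 (1), and Srebf1, Mlxipl, Acly, Acaca and Elovl3 had none. The count was 7 to 10 without B6 dam 1 or 2, C3 dam 3, any B6C3F1 daughter, or C3B6F1 daughter 2 or 3, and 11 to 19 without any other animal. Apart from the first of them, the windows described next were picked after their values were seen.

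The widest of the 16 was in Me1, overlapping a coding exon 16197 bp into the gene (chr9:86573501-86574000, 7 CpGs). Dams had a lowest value of 48.3%, a median of 53.5% and a highest of 65.2%, and daughters had 65.3%, 72.3% and 76.3%. Every dam was below every daughter, by 16.4 points on average (log2 -1.02 ± 0.15, adjusted p = 2.04e-04). Sons had 64.7%, 71.9% and 76.6% as lowest, median and highest values. The B6 sires (83.0%, 85.5% and 82.1%) lay above all sons and the C3 sires (58.2%, 62.0% and 62.0%) below all sons. Averaged over both strains, sires differed from sons by 1.00 points (adjusted p = 0.907). Dams also differed by strain, with means of 61.0% in B6 and 49.1% in C3. The step from dam to daughter differed from the step from sire to son by -17.4 points (adjusted p = 0.01, or 0.0684 with thinned reads).

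Of the Elovl6 windows, 9 lay in introns between 23446 and 57446 bp into the gene, and all 9 were lower in dams. As neighbours in 1 gene they are not independent. At chr3:129280001-129280500, dams had 69.3%, 74.6% and 80.6% and daughters 83.4%, 86.3% and 88.2%. The arms were apart, dams being lower by 11.4 points (log2 -1.04 ± 0.16, adjusted p = 9.24e-04), and the step differed from that of the males by -18.4 points (adjusted p = 1.32e-04). At chr3:129291501-129292000, dams had 54.3%, 62.5% and 65.7% and daughters 66.7%, 75.0% and 83.3%, a difference of -13.8 points (adjusted p = 0.0103, or 0.0559 without C3B6F1 daughter 3). The other Elovl6 window, at -2054 bp from the gene start, was higher in dams by 8.97 points (adjusted p = 0.039). It did not pass without B6 dam 1 or 2, C3 dam 3, B6C3F1 daughter 2 or 3, or C3B6F1 daughter 1 or 3 (adjusted p = 0.109 to 0.159).

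Acacb had the widest of the increases in dams. Its window at chr5:114625501-114626000 holds 22 CpGs and overlaps an untranslated exon at the annotated start 29371 bp into the gene. The B6 dams had 17.1%, 16.2% and 16.8%, the C3 dams 27.7%, 25.9% and 32.0%, and the 6 daughters ranged from 7.1% to 10.9% with a median of 10.0%. All dams were above all daughters, the C3 dams most of all (13.2 points, log2 1.45 ± 0.20, adjusted p = 1.01e-04). Sires ranged from 3.8% to 8.8% and sons from 5.0% to 7.5%, both overlapping the daughters, and the step differed from that of the males by 13.9 points (adjusted p = 0.00756).

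At Scd1, a window over the untranslated part 10949 bp into the gene (chr19:44471001-44471500) had 50.9%, 59.0% and 66.3% in dams and 68.6%, 74.3% and 76.3% in daughters. Dams were again all below the daughters, by 14.9 points (log2 -0.95 ± 0.18, adjusted p = 0.00835). Sires (61.4%, 67.3% and 73.7%) were on average above sons (48.5%, 62.0% and 68.6%). Downstream of Fasn (chr11:120666501-120667000), dams had 45.3%, 50.8% and 58.1% and daughters 58.6%, 64.7% and 68.4%, a difference of -12.6 points with no overlap (adjusted p = 0.0254). That difference no longer passed the adjusted p when B6 dam 2 (adjusted p = 0.135), C3 dam 2 or 3, any B6C3F1 daughter or C3B6F1 daughter 2 or 3 was left out.

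**Figure D3:**
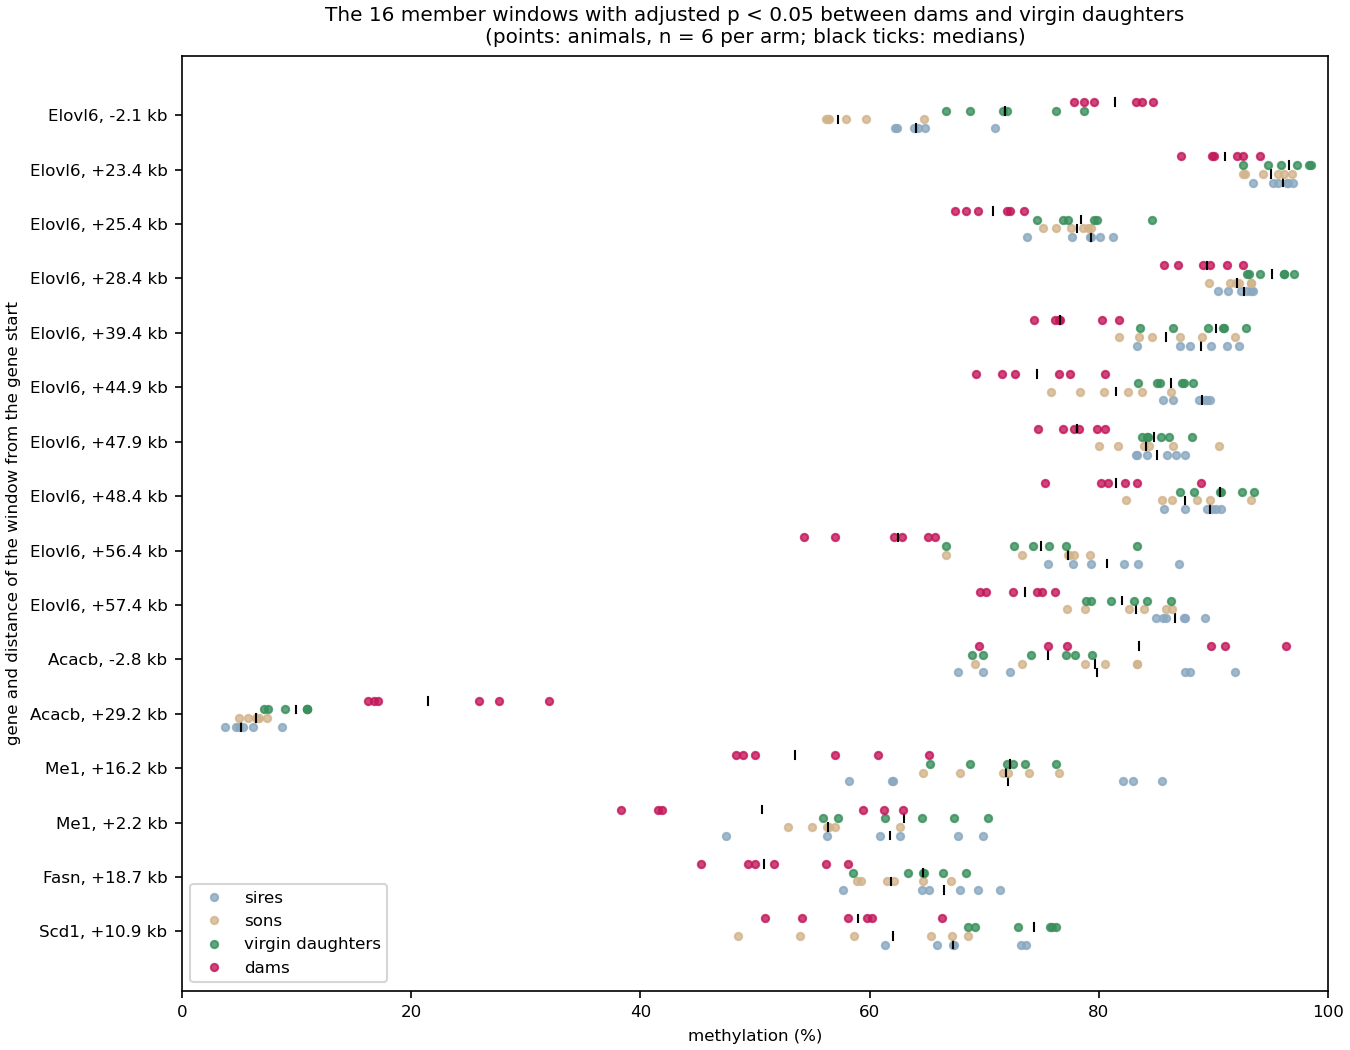
Methylation (x axis, percent) of the 16 windows with an adjusted p below 0.05 between dams and virgin daughters (y axis, gene and distance from its start), with the 6 dams, daughters, sires and sons each as points and medians as ticks. Dams lie below daughters in 13 windows and above in 3, and the Acacb window 29.2 kb into the gene shows the dams above all daughters.

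The step from sires to sons gave the same comparison without motherhood. No window was called in limma (131 at an unadjusted p below 0.05), against 0.00227% of all windows, and 2 passed the adjusted p alone, against 0.0143%. The wider of these was in an Elovl6 intron (chr3:129251501-129252000), where sires had 88.3%, 90.0% and 93.7% and sons 79.0%, 81.5% and 86.5%, sires being 8.39 points higher (adjusted p = 0.0333). The count of 2 fell to 0 without any 1 of B6 sires 1 and 2, the 3 C3 sires and B6C3F1 son 1. Across the 849 windows the median step was 0.49 points in males, and 0.03 points over all windows. The test of the step in females against the step in males called 2 windows, both negative, against 0.0185% of all windows (0.0182% negative), and 10 passed its adjusted p, 1 positive and 9 negative, against 0.0428% (0.00329% and 0.0395%). Both called windows lay in Scd1: the one at chr19:44471001-44471500 (-22.6 points, log2 -1.44 ± 0.25, adjusted p = 0.0122) and one 12449 bp into the gene at chr19:44469501-44470000 (-22.7 points, log2 -1.34 ± 0.26, adjusted p = 0.035). In the latter, dams had 31.3%, 37.6% and 50.7% and daughters 45.6%, 49.7% and 60.9%, while sires had 48.6%, 57.4% and 62.6% and sons 33.2%, 46.9% and 59.6%. The arms overlapped in both sexes, and neither step passed alone (adjusted p = 0.0843 in females and 0.605 in males). This call was lost without any of 16 animals in turn, with a minimum of 3 CpGs and with thinned reads. Without B6 dam 2, 6 windows passed the adjusted p. Of the 16 windows that passed between dams and daughters, 7 also passed this test, which shares the dam and daughter values and is not independent of them.

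**Figure D4:**
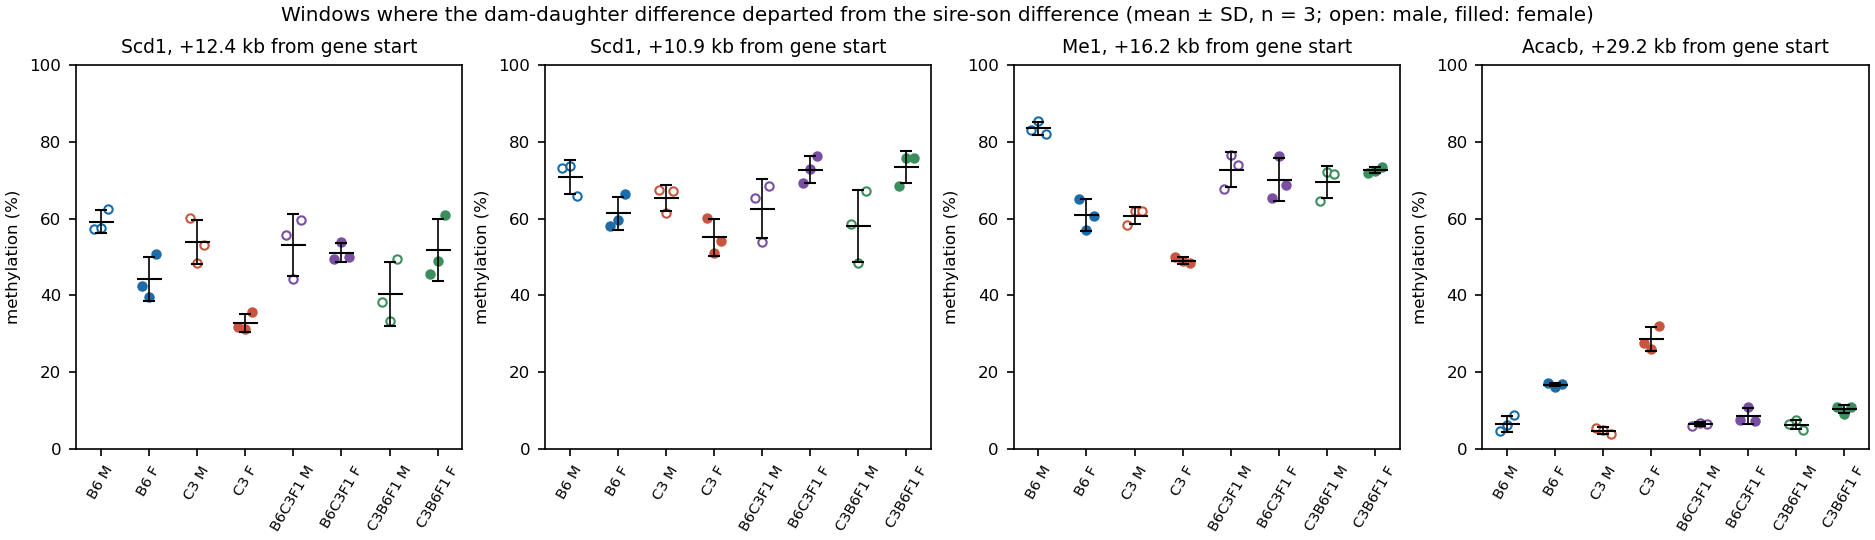
Methylation (y axis, percent) by group (x axis) in windows where the difference between dams and daughters departed from that between sires and sons, each point an animal and each line the mean ± SD (n = 3). At Me1 the dams (48.3% to 65.2%) lie below the daughters (65.3% to 76.3%), while B6 sires lie above and C3 sires below the sons.

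Neither promoters nor whole loci separated dams from daughters. None of the 10 promoters passed in limma (1 at an unadjusted p below 0.05), against 0.15% of all promoters. None of the 10 loci passed as a whole (2 at an unadjusted p below 0.05), against 0.844% of all loci, although the quasi-binomial model passed 1, Elovl6, at -2.33 points (adjusted p = 0.0245).

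The sexes were compared in parents and in offspring separately. Between sires and dams 7 windows were called (0.824%), 3 higher in sires and 4 higher in dams, against 0.104% of all windows (0.0357% and 0.0684%). By the adjusted p alone 52 windows differed (6.12%), 34 higher in sires and 18 higher in dams, against 0.974% (0.462% and 0.512%). Between sons and daughters 4 windows were called (0.471%), all higher in daughters, against 0.051% (0.0474% higher in daughters), and 25 passed the adjusted p (2.94%), 3 higher in sons and 22 higher in daughters, against 0.343% (0.0518% and 0.292%). Without B6C3F1 daughter 2, 16 passed. The 4 windows called in offspring were all in Elovl3 and were the same as the 4 called as higher in dams.

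These 4 Elovl3 windows began in an intron 863 bp into the gene and ran, with a gap of 1 window, to 2863 bp. The widest was chr19:46208501-46209000, over parts of coding exons and the intron between them, with 14 CpGs. Sires had 26.7%, 30.8% and 39.1% as lowest, median and highest values and dams 74.6%, 77.7% and 84.8%. Sons had 27.0%, 39.1% and 42.7% and daughters 67.7%, 76.4% and 83.0%. No male reached the lowest female, and the differences were -46.8 points in parents (log2 -2.97 ± 0.17, adjusted p = 3.27e-13) and -39.3 points in offspring (log2 -2.47 ± 0.17, adjusted p = 6.2e-11). All 14 CpGs shared the direction. The strains did not pass the test there (-1.97 points, adjusted p = 0.672).

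In the intronic Elovl3 window at chr19:46207001-46207500, the difference between sires and dams was -44.6 points (log2 -3.30 ± 0.27, adjusted p = 8.66e-10) and that between sons and daughters -35.2 points (log2 -2.52 ± 0.27, adjusted p = 5.15e-07). The B6C3F1 sons had 17.7%, 10.3% and 18.9% and the B6C3F1 daughters 41.8%, 46.8% and 60.8%, and the C3B6F1 sons had 12.0%, 15.2% and 9.9% against 35.1%, 62.8% and 48.0% in C3B6F1 daughters. Males of all 4 genotypes were thus low, below every female, and dams and daughters did not pass the test against each other (8.68 points, adjusted p = 0.557). The windows at chr19:46208001-46208500 (-26.0 points in parents and -20.9 in offspring, adjusted p = 3.36e-09 and 1.06e-06) and chr19:46209001-46209500 (-22.9 and -25.0 points, adjusted p = 2.85e-08 and 2.16e-08) had the same direction. Without B6C3F1 son 1 or C3B6F1 son 3 the first of these was -19.0 or -19.9 points in offspring. The Elovl3 locus as a whole was lower in males by 10.3 points in parents (-10.3, adjusted p = 1.86e-06) and 7.92 points in offspring (-7.92, adjusted p = 9.20e-05).

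Acacb had 15 windows past the adjusted p between sires and dams, 11 higher in sires and 4 higher in dams, and its 3 called windows were all in introns near the gene start and all higher in sires. At chr5:114597001-114597500, 706 bp into the gene, sires had 51.0%, 58.8% and 69.2% and dams 22.7%, 30.0% and 31.5%, sires being higher by 31.2 points (log2 1.89 ± 0.17, adjusted p = 4.57e-09). Sons (47.8%, 51.0% and 64.4%) also lay above daughters (36.6%, 38.7% and 44.7%), by 14.0 points (adjusted p = 0.0143), below the 20-point limit. The 2 sex differences were not shown to differ from each other (-17.2 points for the step in females against the step in males, adjusted p = 0.119). The 4 windows higher in dams were neighbours from chr5:114624501 to chr5:114626500, around the start 29371 bp into the gene, with differences of -15.5, -13.9, -17.0 and -18.6 points, and the third had the smallest adjusted p of the locus (3.94e-09). None of them passed in offspring, where sons and daughters averaged 39.3% and 39.4%, 58.1% and 59.3%, 6.3% and 9.4%, and 27.4% and 33.9%. In the third, the step in females differed from that in males by 13.9 points (adjusted p = 0.00756), with dams highest. At chr5:114601501-114602000 sires were higher by 21.5 points (adjusted p = 1.22e-06, and 19.6 points without C3 dam 1) and at chr5:114602001-114602500 by 24.5 points (adjusted p = 3.21e-07), with 10.7 and 11.7 points in offspring (adjusted p = 0.0461 and 0.0467).

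Elovl6 had no window called by sex, but 19 passed the adjusted p in parents, 15 of them higher in sires, and 9 in offspring, all 9 higher in daughters. Fasn had 5 in parents, all higher in sires, and 0 in offspring. Scd1 had 1 in parents and 4 in offspring, all 4 higher in daughters. No member promoter passed between sires and dams (3 at an unadjusted p below 0.05 in limma), against 0.544% of all promoters, and 2 loci passed as wholes, Elovl6 (2.32 points higher in sires, adjusted p = 0.0195) and Elovl3, against 13.4% of all loci. Without C3 sire 2 the Elovl3 promoter passed as well, and without B6 sire 2, C3 sire 2 or C3 dam 1 the Elovl6 locus did not pass.

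**Figure D5:**
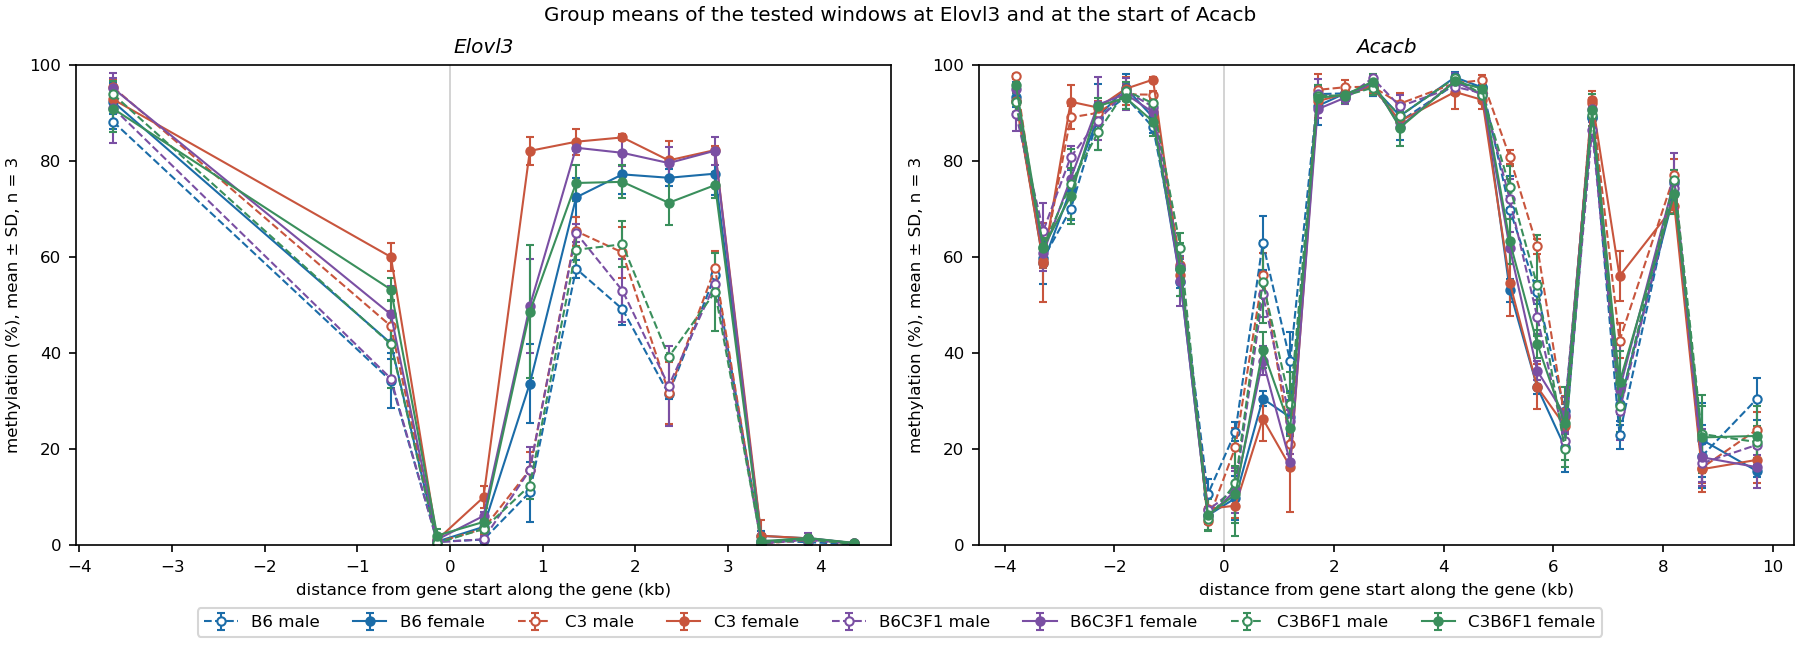
Methylation (y axis, percent, mean ± SD, n = 3) along genes with windows called by sex (x axis, kb from the gene start) in the 8 groups. Elovl3 windows from 0.9 to 2.9 kb are lower in all male groups than in all female groups, and Acacb windows near the start are higher in sires than in dams.

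The 31 other listed genes of lipid synthesis, NADPH supply and lipogenic regulation, with 1311 tested windows, were counted in the same way. Between strains 18 of their windows were called (1.37%), 9 in each direction, in 7 genes, and 193 passed the adjusted p (14.7%), against 0.494% and 6.63% of all windows. The widest were in Pgd, an NADPH-producing enzyme of the pentose phosphate pathway (-47.8 and -38.5 points), and Elovl5, a polyunsaturated fatty acid elongase (41.9 points). Between dams and daughters none was called, and 19 passed the adjusted p (1.45%, against 0.181% of all windows), 2 higher and 17 lower in dams, in 5 genes. Between sires and dams 6 were called (0.458%, against 0.104%), all higher in sires, the widest being 2 windows of Pnpla3, a lipid droplet lipase (26.6 and 25.5 points), and 1 of Fads2, the delta-6 desaturase (23.5 points), and 70 passed the adjusted p (5.34%, against 0.974%), 52 higher in sires. None was called between sons and daughters, where 19 passed the adjusted p (1.45%, against 0.343%).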

How the data were processed

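Livers of 24 mice were bisulfite sequenced, 3 animals in each of 8 groups named by strain or cross and sex in the labels. Per the labels and the study's methods, the authors mapped reads to mm9, removed duplicates and deposited, for each animal, counts of methylated and unmethylated reads at each CpG present in both strain genomes and the reference. The submitters' processing notes name CASAVA 1.8.2, Bismark 0.7.8, Bowtie 0.12.8 and Picard 1.110. A deposited list of strain SNVs was used for positions only. FOXA1 ChIP samples of the series were not analysed here.

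The counts were summed over the CpGs of fixed 500-bp windows, promoters (1000 bp before to 500 bp after the gene start) and loci on the autosomes, using GENCODE annotation of mm9. The ratio log2((methylated + 1)/(unmethylated + 1)) was fitted with limma 3.58.1 in R 4.3.3 (8 group means, all 24 animals, eBayes with trend and robust settings), with Benjamini-Hochberg adjustment over all windows, promoters or loci. Windows needed 5 or more CpGs and, in each animal, 30 or more reads. Windows were called at an adjusted p under 0.05 with group means 20 or more points apart, and promoters and loci by the adjusted p alone. The study's own callers of differentially methylated regions were not used here.

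Windows described by a rule were up to 6 called windows per direction and comparison with the largest difference, otherwise the window with the largest difference among those with an adjusted p below 0.05, otherwise the largest difference as a value. The genes, lists and rule were chosen with earlier results of these data known. The fit was tested on simulated data. Alternatives were other minima of CpGs, reads and difference, shifted windows, thinned reads, CpGs near an SNV left out, a pseudocount of 5, an arcsine scale, a quasi-binomial model, a replicate block and leaving out each animal. A minimum of 10 reads per CpG in every group, equal weight per CpG and the strain by sex test were added after seeing the data. Sequences and motifs were read from the mm9 reference with python 3.11.15.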

Additional observations from a re-analysis of the deposited data

Results flagged for a closer look

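The step from dam to virgin daughter was tested against the step from sire to son, and 10 windows passed at an adjusted p below 0.05 from limma. This is the same test as that of the sex difference in parents against the sex difference in offspring. The differences between the steps are given as dam minus daughter less sire minus son.

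At Elovl6, the palmitate elongase, 5 intronic windows passed, with differences of -16.2 points at chr3:129251501-129252000, -13.7 points at chr3:129274501-129275000, -18.4 points at chr3:129280001-129280500, -19.4 points at chr3:129291501-129292000 and -13.4 points at chr3:129292501-129293000. In the first of these the step passed in sires and sons (8.39 points, failing under 12 of 33 alternatives) and not in dams and daughters (-7.78 points, adjusted p = 0.0972). The windows at chr3:129280001-129280500 and chr3:129291501-129292000 passed under every alternative that could be run, whereas chr3:129274501-129275000 failed under 23 and chr3:129292501-129293000 under 18.

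At Acacb the window at the start 29371 bp into the gene differed by 13.9 points, with dams above all other groups, and a second at chr5:114674001-114674500 by -6.54 points (adjusted p = 0.0155). The latter failed under 3 alternatives (adjusted p up to 0.44, with thinned reads), among them leaving out B6 dam 2 (0.0502). Sires there were 4.26 points above sons (adjusted p = 0.0495), a difference that failed under 25 of 33 alternatives (adjusted p up to 0.574). The Me1 window overlapping a coding exon at chr9:86573501-86574000 differed by -17.4 points. The Scd1 windows at chr19:44469501-44470000 and chr19:44471001-44471500 differed by -22.7 and -22.6 points. The first of them failed under 18 alternatives and the second under none. Inbred against hybrid genotype, generation and housing separate the parents from the offspring in both sexes, whereas motherhood separates only the dams from the daughters. The parts of these factors in the differences between the sexes were not tested. Groups of 3 animals were too small to be searched for single outlying animals.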

How the results depend on the processing

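Of 1758 alternative values of the 53 described results, 1511 kept direction and side of the threshold, 243 lost the threshold and 0 reversed. The other 4 were values without a test, the differences with equal weight per CpG over CpGs with 10 or more reads in every group, and 3 of them fell below 20 points between strains (Me1 at chr9:86532501-86533000 -13.1, Srebf1 13.0 and Acaca at chr11:83955001-83955500 11.3). The other was Elovl6 at chr3:129251501-129252000, where the step in females against males was -21.6 points. With a minimum of 10 points in place of 20, the called windows of the 10 loci rose by construction to 37 between strains (2.39% of all windows passed at that limit), 8 between dams and daughters (0.136%), 9 for the step in females against males (0.0414%), 38 between sires and dams (0.573%) and 21 between sons and daughters (0.255%). With at least 100 reads in every animal, 3 windows were called between strains and 2 between sons and daughters. The remaining called windows had too few reads in some animal to be tested at that limit. Their lowest read numbers were 36 to 77 between strains, and 77 and 99 between sons and daughters. Windows shifted by 250 bp gave 5 between strains, 1 between dams and daughters (downstream of Fasn, -20.4 points) and 5 for the step in females against males, and the cause was not tested. That last count was 1 with a minimum of 3 CpGs and 1 with thinned reads. With at least 10 reads per CpG in every group 7 windows were called between strains, the Srebf1 window being lost. The quasi-binomial model passed 1 locus between dams and daughters.

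Leaving out each animal in turn gave 7 to 8 called windows between strains, 0 to 0 between dams and daughters (7 to 19 by the adjusted p alone), 0 to 0 between sires and sons, 6 to 9 between sires and dams, 3 to 5 between sons and daughters and 0 to 0 between reciprocal crosses and for strain by sex. The step in females against males gave 1 to 3, with 1 after leaving out any of 13 animals, namely all B6 sires, B6 dams 1 and 2, C3 sires 1 and 3, C3 dam 1, B6C3F1 son 2, all B6C3F1 daughters and C3B6F1 son 2. Promoters gave 1 to 2 between strains (2, with Srebf1, without C3 sire 3), 0 to 0 between dams and daughters and 0 to 1 between sires and dams. Loci gave 3 to 3, 0 to 0 and 1 to 3.

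The replicate numbers were not taken to pair the animals. The labels do not tie them to the families, and same-numbered animals of different groups correlated in their deviations at -0.00880 to 0.0649 over 84 pairs. With the replicate block the counts of called windows were unchanged, 8 between strains and 0 between dams and daughters, and 91 and 15 windows passed the adjusted p. Of the 694 windows not tested, 682 held too few CpGs and 12 too few reads.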
